A study of Mus musculus with 36 samples.

Results

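The Ikaros zinc finger family consists of 5 transcription factor genes, Ikzf1 (encoding Ikaros), Ikzf2 (Helios), Ikzf3 (Aiolos), Ikzf4 (Eos) and Ikzf5 (Pegasus). Members were taken as the rows of the deposited expression table that carry one of these symbols. This gave 3 of the 5 genes, Ikzf1, Ikzf3 and Ikzf5, among 12762 genes in all, while Ikzf2 and Ikzf4 were not rows of the table and were not analysed here.

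The samples were cultures of B3, a mouse pre-B cell line, in 36 mRNA libraries. Control cells carried an MSCV retrovirus with ERt2, the hormone-binding domain of the estrogen receptor, followed by IRES and GFP, and Ikaros cells carried one in which HA-Ikaros was fused to ERt2. Both lines were sorted for GFP as pools of infected cells. The time points were 0, 2, 6, 12, 18 and 24 h, and each of the 12 combinations of line and time had 3 libraries. The labels list 4-OHT (4-hydroxy-tamoxifen), the drug that moves an ERt2 fusion into the nucleus, at 0.5 uM for every library including 0 h, whereas the study's methods describe the 0 h cultures as grown without drug and obtained separately. The replicates were culture batches, numbered 1, 2 and 4 for the 0 h cultures and 1, 3 and 4 for all later ones, so replicate 2 came from another batch at 0 h than later. The parental B3 cells keep their own Ikzf1 gene, and the deposited values do not separate reads of that gene from reads of the retroviral Ikaros sequence.

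Ikaros family proteins carry an N-terminal group of zinc fingers that binds DNA around a GGGAA core, and a C-terminal pair of fingers through which members form homodimers and heterodimers. Ikaros is required for lymphocyte development and restrains the proliferation of large pre-B cells, and Aiolos increases as pre-B cells differentiate in the bone marrow. Helios and Eos are best known from T cells, and Pegasus is a more distant member with a different preferred DNA site. The proteins act in large part through the NuRD chromatin remodelling and deacetylase complex.

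In GENCODE release 21 on GRCm38, the build also called mm10, Ikzf1 (ENSMUSG00000018654) lies on the plus strand at chr11:11685003-11772926. Ikzf3 (ENSMUSG00000018168) lies on the minus strand of the same chromosome at chr11:98464902-98546031, and Ikzf5 (ENSMUSG00000040167) on the minus strand at chr7:131388652-131410521. Ikzf2 is annotated at chr1:69531214-69687245 and Ikzf4 at chr10:128630843-128645991, both on the minus strand. All 5 genes are annotated as protein coding. Within the transcripts of these genes, the longest run of identical bases that Ikzf1 shared with another member was 26 bases, with Ikzf3, and the longest with Ikzf4, Ikzf2 and Ikzf5 ran over 24, 17 and 15 bases. No stretch of 75 bases, the length of 1 read, was shared between Ikzf1 and any other member.

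RefSeq promoter windows on GRCm38.p6, from 250 bases before to 50 bases after a transcription start, were found for 2 of the 5 members, with 2 starts for Ikzf1 and 1 for Ikzf5. They are shown because they are the chromosomal promoters of measured members and can be read for the family's own core motif, written in capitals as GGGAA or, on the other strand, TTCCC. The windows span chr11:11685675-11685974 and chr11:11689927-11690226 on the plus strand and chr7:131410429-131410728 on the minus strand.
Ikzf1, first start: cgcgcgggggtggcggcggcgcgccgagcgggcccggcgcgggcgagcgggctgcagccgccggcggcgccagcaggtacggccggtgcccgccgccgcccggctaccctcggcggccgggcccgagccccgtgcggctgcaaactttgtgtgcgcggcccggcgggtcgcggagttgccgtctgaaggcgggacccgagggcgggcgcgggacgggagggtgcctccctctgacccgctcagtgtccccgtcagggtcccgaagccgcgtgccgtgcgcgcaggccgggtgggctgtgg
Ikzf1, second start: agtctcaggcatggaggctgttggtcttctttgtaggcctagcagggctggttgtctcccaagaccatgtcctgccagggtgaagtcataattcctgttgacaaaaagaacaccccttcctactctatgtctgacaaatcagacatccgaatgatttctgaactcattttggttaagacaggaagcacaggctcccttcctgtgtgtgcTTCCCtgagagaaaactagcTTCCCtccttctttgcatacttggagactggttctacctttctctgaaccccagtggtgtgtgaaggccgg
Ikzf5: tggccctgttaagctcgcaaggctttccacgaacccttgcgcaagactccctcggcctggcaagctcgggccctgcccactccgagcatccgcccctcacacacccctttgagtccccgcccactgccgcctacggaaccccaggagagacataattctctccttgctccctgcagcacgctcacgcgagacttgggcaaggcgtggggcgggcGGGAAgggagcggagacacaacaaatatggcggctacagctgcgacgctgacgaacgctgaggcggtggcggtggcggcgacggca
The window of the first Ikzf1 start held no match to GGGAA on either strand, and its GC content was 81.3%, against a median of 52.7% over 32851 windows. The window of the second Ikzf1 start, with 49% GC, held 2 matches, beginning at positions -41 and -21 from the start, both on the opposite strand. The Ikzf5 window held 1 match, at position -36. The longer motif TGGGAA, which contains GGGAA, was absent from all 3 windows. GGGAA occurred on either strand in 62.7% of all windows and TGGGAA in 25.6%, and no test was made on these 3 windows.

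Expression is given as the authors' log2 value, corrected for GC content and gene length with cqn and for library preparation with ComBat, with a constant added so that the lowest value of the table is 1. Library medians lay between 11.70 and 11.73. Depth is unknown because no counts were used. The B cell precursor markers Cd79a, Cd79b, Pax5 and Ebf1 were in the table, with medians over the libraries of 18.46, 15.78, 16.30 and 15.73. None of the 6 T cell markers was in the table, and of the 5 myeloid markers 2 were, Lyz2 and Itgam, with medians of 6.57 and 5.43.

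Ikzf1 was strongly expressed, Ikzf5 was near the middle of the table and Ikzf3 was weakly expressed. The length-corrected log2 level of Ikzf1 averaged 14.53 over the 18 control libraries, where 88.6% to 91.8% of genes had a lower group mean, and 20.40 over the 18 Ikaros libraries, whose row includes the retroviral sequence, where 99.84% to 99.95% had. Over all 36 libraries the level averaged 11.87 for Ikzf5 and 7.32 for Ikzf3, and 52.6% and 11.4% of genes had a lower mean. The residual SD of Ikzf3 was 0.67, larger than in 90% of genes, against 0.23 for Ikzf1 and 0.13 for Ikzf5, where the median gene had 0.23. In these bulk samples, fewer cells expressing a gene and less RNA per cell cannot be told apart.

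**Figure D1:**
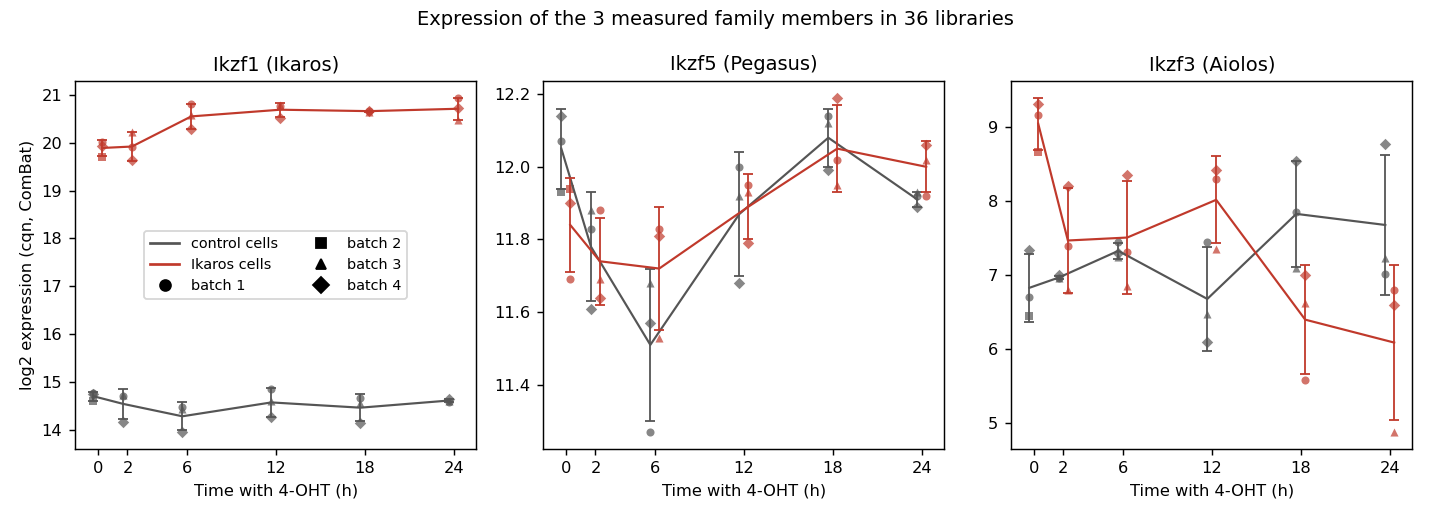
Log2 expression of Ikzf1, Ikzf5 and Ikzf3 (vertical axes, each with its own range) against time with 4-OHT in hours for control cells (grey) and Ikaros cells (red). Each symbol is 1 library, its shape gives the culture batch, lines join the means of 3 libraries and bars are SD; the lines of Ikzf1 lie apart at every time, those of Ikzf5 overlap, and those of Ikzf3 cross between 12 and 18 h.

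Ikzf1 was much more abundant in Ikaros cells than in control cells at every time, including 0 h, and the difference became larger between 2 and 6 h. In control cells, the 3 libraries at 0 h held log2 values of 14.77, 14.59 and 14.74, and those at 24 h held 14.58, 14.61 and 14.65. In Ikaros cells, the libraries held 20.02, 19.71 and 19.94 at 0 h and 19.90, 20.23 and 19.63 at 2 h. The 6 h libraries held 20.80, 20.57 and 20.28 and the 12 h libraries 20.76, 20.79 and 20.52. The 18 h libraries held 20.66, 20.65 and 20.66, and the 24 h libraries 20.93, 20.48 and 20.72. Libraries from 6 h on were all above those of 0 h. The highest of the 18 control libraries, 14.85, was far below the lowest of the 18 Ikaros libraries, 19.63.

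The log2 difference between Ikaros and control cells was 5.19 ± 0.18 (SE, n = 3 per group) at 0 h, a 36.5-fold difference with an adjusted p of 5.28e-17 (limma, Benjamini-Hochberg over all genes). At 2, 6, 12, 18 and 24 h it was 5.39, 6.26, 6.12, 6.20 and 6.10, with the same SE, which made 68.4-fold at 24 h. Within batches it lay between 5.12 and 6.52 and was above 0 in all 18 pairs of libraries. Because both the endogenous and the retroviral sequence feed this row in Ikaros cells, the differences check the labels of the lines and do not measure a change of the endogenous gene. The control vector carried no Ikaros sequence.

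Esr1, the mouse estrogen receptor gene, had log2 values of 6.38 to 9.07 in Ikaros cells and 7.33 to 9.46 in control cells, so the lines overlapped. Whether reads of the ERt2 sequence of the vectors enter this row was not tested. The sole gene of the table annotated over Ikzf1, Gm11999 on the opposite strand, was at 7.64 in Ikaros and 8.76 in control cells at 0 h and at 6.50 and 8.05 at 24 h, differences that did not pass the test (adjusted p = 0.411 and 0.0523, limma).

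The growth of the Ikzf1 difference was tested against 0 h and, because the 0 h cultures were separate, also against 2 h. From 0 h to 2 h the difference changed by 0.19 ± 0.26 (95% interval -0.34 to 0.73). At 6, 12, 18 and 24 h it exceeded the 0 h difference by 1.07, 0.93, 1.01 and 0.90 (adjusted p = 0.00482, 0.00757, 0.00239 and 0.00512, limma). Against 2 h it had grown by 0.88, 0.73, 0.82 and 0.71 at these times (adjusted p = 0.0425, 0.0423, 0.0126 and 0.026, limma). These calls rested on few libraries. Without replicate 2 all 8 lost their call, with adjusted p from 0.052 to 0.261, and without replicate 1 the changes from 0 h to 6 h and to 24 h and all 4 changes from 2 h did so (adjusted p from 0.0847 to 0.405). In fits of the compared groups alone the changes from 2 h by 6, 12 and 24 h were lost as well (adjusted p = 0.259, 0.146 and 0.0596).

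The increase was seen within the Ikaros line, and at 6 h a lower control mean added to the difference. Ikaros cells differed from their own 0 h by 0.03 at 2 h, where the call was not made, and rose by 0.66, 0.80, 0.77 and 0.82 at 6, 12, 18 and 24 h (adjusted p = 0.00696, 0.000795, 0.000875 and 0.000375, limma), at most a 1.76-fold rise. The 6 h call was lost without replicate 1 or 2 (adjusted p = 0.0907 and 0.171) and the 12 h call without replicate 2 (0.0697). Between 2 and 6 h all 3 batches moved up, by 0.90, 0.34 and 0.65 in batches 1, 3 and 4, and this was the only called step between neighbouring times (0.63, adjusted p = 0.0257, limma), a call lost without replicate 1 or 2 and in the fit of these groups alone (adjusted p = 0.31, 0.143 and 0.267). In control cells Ikzf1 was not called at any time. Between 2 and 6 h the control batches 1, 3 and 4 changed by -0.24, -0.30 and -0.22 (-0.25 in the fit, adjusted p = 0.615, limma). The lowest control group was 6 h, at -0.42 from 0 h (adjusted p = 0.141, limma), which was called when the culture batch entered as a replicate block, at -0.52 (adjusted p = 0.0211). When the 12 group means were ordered, the 4 Ikaros groups from 6 to 24 h came first, followed by Ikaros cells at 2 and 0 h and then all control groups. Of the 11 neighbouring pairs in that order, 9 had overlapping libraries, and the 2 gaps lay between Ikaros cells at 6 and 2 h (0.63) and between the 2 lines (5.19).

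**Figure D2:**
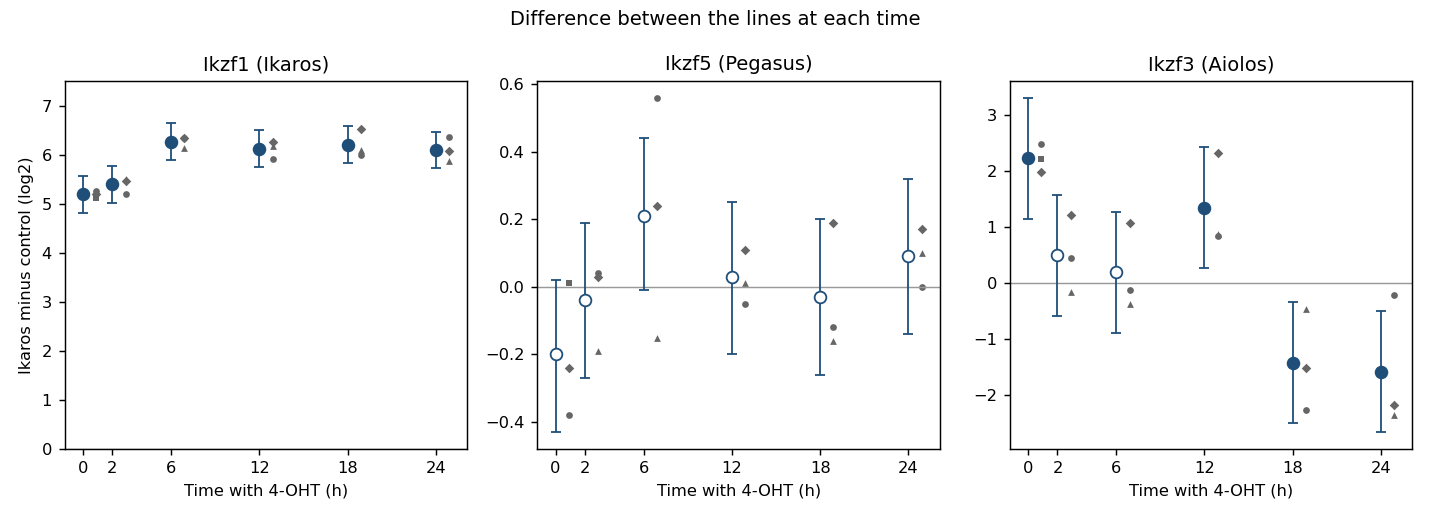
Difference in log2 expression between Ikaros and control cells (vertical axes, each with its own range) for Ikzf1, Ikzf5 and Ikzf3 against time with 4-OHT in hours. Circles are the fitted differences with 95% intervals, filled where the adjusted p is under 0.05, and the small grey symbols beside them are the differences within culture batches 1 (circle), 2 (square), 3 (triangle) and 4 (diamond); Ikzf3 moves from 2.22 at 0 h to -1.59 at 24 h.

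Ikzf3 was higher in Ikaros than in control cells at 0 h and lower at 18 and 24 h. At 0 h the Ikaros libraries held log2 values of 9.17, 8.66 and 9.32 and the control libraries 6.70, 6.45 and 7.34, so the lines did not overlap. At 2 h the Ikaros libraries held 7.39, 6.80 and 8.21 against 6.96, 6.96 and 7.00 in control cells, and at 6 h 7.31, 6.85 and 8.36 against 7.45, 7.25 and 7.30. The lines overlapped at both of these times.

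At 12 h the Ikaros libraries held 8.30, 7.35 and 8.42 and the control libraries 7.45, 6.48 and 6.10, a small overlap. At 18 h the Ikaros libraries had dropped to 5.58, 6.63 and 7.01 while control libraries held 7.85, 7.10 and 8.54. At 24 h they held 6.80, 4.88 and 6.60 against 7.02, 7.24 and 8.77, and the lines were apart at both times in the direction opposite to that at 0 h.

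The log2 difference of Ikzf3 was 2.22 ± 0.53 (SE, n = 3 per group) at 0 h, a 4.66-fold difference (adjusted p = 0.00633, limma). At 2 and 6 h it was 0.49 and 0.18, neither called (adjusted p = 0.585 and 0.822), and at 12 h it was 1.34 (adjusted p = 0.0384). It was -1.43 at 18 h (adjusted p = 0.0222) and -1.59 at 24 h (adjusted p = 0.0107), the latter a 3-fold lower level. Within batches the difference was positive in 3 of 3 pairs at 0 h, from 1.98 to 2.47, and at 12 h, from 0.84 to 2.32. It was negative in 3 of 3 pairs at 18 h, from -2.27 to -0.47, and at 24 h, from -2.36 to -0.22.

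Not all of these calls were stable. The 12 h call was lost without any 1 of the 3 replicates (adjusted p from 0.0583 to 0.219) and in the fit of these groups alone (0.0602). The 0 h call was lost without replicate 1 or 2 (0.173 and 0.0703), the 18 h call without replicate 1 (0.268) and the 24 h call without replicate 2 or 3 (0.108 and 0.0509) or with these groups alone (0.0851).

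The change of the difference was called late in the course. From 0 h it changed by -3.65 ± 0.74 by 18 h and by -3.81 ± 0.74 by 24 h (adjusted p = 0.00025 and 0.000123, limma), and both calls held in the 8 alternatives that kept Ikzf3. By 2, 6 and 12 h it had changed by -1.73, -2.04 and -0.88 without a call (adjusted p = 0.3, 0.0616 and 0.407). The change by 6 h was called once the fit held culture batch as a replicate block (adjusted p = 0.0187). Against 2 h, with no 0 h library involved, it changed by -1.92 by 18 h and by -2.08 by 24 h (adjusted p = 0.0393 and 0.0232, limma). The first of these was lost without replicate 1 or 3 (0.275 and 0.127). The second was lost without replicate 2 or 3 (0.0854 and 0.139) or with these groups alone (0.0646). The means of both lines moved. From 2 to 18 h the Ikaros mean went from 7.47 to 6.40 and the control mean from 6.97 to 7.83. At 24 h the means were 6.09 and 7.68. From 2 to 18 h Ikaros batches 1, 3 and 4 changed by -1.81, -0.17 and -1.20. The same control batches changed by 0.89, 0.14 and 1.54. Neither line was tested alone from 2 h to 18 or 24 h.

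The calls over time within a single line lay in Ikaros cells. Against their own 0 h, Ikaros cells fell by 1.58 on the log2 scale at 2 h and by 1.54 at 6 h (adjusted p = 0.0355 and 0.0257, limma), calls that were lost without replicate 1 or 2 (adjusted p from 0.133 to 0.191); the 2 h call was also lost in the fit of these groups alone (0.0633). They were at -1.03 at 12 h (adjusted p = 0.112). They fell by 2.65 at 18 h and by 2.96 at 24 h (adjusted p = 0.000122 and 2.35e-05, limma), a 7.77-fold lower level at 24 h, and these calls held in the same 8 alternatives. That 24 h level was low, as 5.07% of genes had a lower mean there, and the SD was 1.05. Between neighbouring times the called step was 12 to 18 h, where all 3 batches went down, with changes of -2.72, -0.72 and -1.41 in batches 1, 3 and 4 (-1.62 in the fit, adjusted p = 0.0247, limma). That step was lost without replicate 1 (adjusted p = 0.343), the batch with the largest drop, and in the fit of these groups alone (0.0634).

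Control cells gave no call for Ikzf3 at any time, although their means at 18 and 24 h were 1.00 and 0.85 above 0 h (adjusted p = 0.371 and 0.555, limma), with batch 4 the highest library at both times. Ordered by mean, Ikaros cells at 0 h (9.05) stood first, without overlap with the next group, Ikaros cells at 12 h (8.02), and Ikaros cells at 18 h (6.40) and 24 h (6.09) stood last. Among the 11 neighbouring pairs 9 overlapped. The second gap, between control cells at 6 h (7.33) and at 2 h (6.97), was 0.36 wide.

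Ikzf5 was not called between the lines at any time. Its 12 group means lay between 11.51 and 12.08, a span of 0.57 on the log2 scale, and the libraries ranged from 11.27 to 12.14 in control cells and from 11.53 to 12.19 in Ikaros cells. Libraries of all 11 neighbouring groups in the order of means overlapped, and the lines overlapped at every time. At 0 h the Ikaros libraries held 11.69, 11.94 and 11.90 and the control libraries 12.07, 11.93 and 12.14. At 24 h they held 11.92, 12.02 and 12.06 against 11.92, 11.93 and 11.89.

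The Ikzf5 difference between the lines was -0.20, -0.04, 0.21, 0.03, -0.03 and 0.09 at 0, 2, 6, 12, 18 and 24 h, with an SE of 0.11, and was not called at any time (adjusted p from 0.134 to 0.869, limma). The 95% interval at 24 h ran from -0.14 to 0.32. From 0 h to 6 h the Ikzf5 difference changed by 0.42 ± 0.16 (95% interval 0.09 to 0.74), without a call (adjusted p = 0.0708, limma). The single call for Ikzf5 was in control cells, which at 6 h were 0.54 ± 0.11 below their 0 h level (libraries at 11.27, 11.68 and 11.57; adjusted p = 0.0136, limma). This call was lost without any 1 of the 3 replicates (adjusted p = 0.274, 0.112 and 0.0607) and in the fit of these groups alone (0.12).

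Read against all genes, the number of members called was 2 of 3 at 0 h, where 8.33% of the 12762 genes were called, and 1 of 3 at 2 and at 6 h, where 19.1% and 37.3% were. It was 2 of 3 at 12, 18 and 24 h, where 45.8%, 58.2% and 62.9% of genes were called. Ikzf1 was among the members called at every time, and its row includes the retroviral sequence. For the change from 0 h, 0 of 3 members were called at 2 h (3.10% of genes, and 1 of 3 members, Ikzf3, beside 1641 genes at an unadjusted p under 0.05 with limma). There was 1 at 6 h (15.9%; 2 with the replicate block) and at 12 h (29.7%), and 2 at 18 h (43.0%) and at 24 h (48.4%). At 6 h all 3 members had an unadjusted p under 0.05 with limma, as had 3661 of the 12762 genes. For the change from 2 h it was 1 by 6 h (5.96%) and by 12 h (22.0%), and 2 by 18 h (42.2%) and by 24 h (47.3%). The F test over the 5 changes from 0 h called 2 of 3 members, Ikzf1 (adjusted p = 0.00154) and Ikzf3 (0.000341), and 59.8% of genes, and Ikzf5 was not called (0.249). The Ikzf1 call in the F test was lost without replicate 1 or 2 (0.0578 and 0.0674). These comparisons share their 0 h or 2 h libraries.

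Within Ikaros cells, members called against 0 h numbered 1, 2, 1, 2 and 2 at 2, 6, 12, 18 and 24 h, where 19.2%, 32.8%, 46.1%, 54.6% and 60.6% of genes were called. Between neighbouring times they numbered 1 from 2 to 6 h (11.2%), 0 from 6 to 12 h (20.8%), 1 from 12 to 18 h (25.5%) and 0 from 18 to 24 h (5.77%). In both steps with none, no member had an unadjusted p under 0.05 with limma, beside 4322 and 2255 genes. Within control cells 1 of 3 was called at 6 h against 0 h (5.10% of genes; 2 with the replicate block), and 0 at 2, 12, 18 and 24 h (0.0470%, 0.0549%, 0.478% and 0.470%). None was called between neighbouring times from 2 to 24 h (0.0392%, 1.13%, 0% and 0%). At an unadjusted p under 0.05, limma gave 1 member in control cells at 2 h against 0 h and 0 at 12, 18 and 24 h. Over all genes it gave 1006 at 2 h and 728, 1899 and 1498 at 12, 18 and 24 h. Between neighbouring times it gave 1 member in each of the first 3 control steps and 0 in the last. In the first 2 of these steps 1402 and 2295 genes had such a p. In the last 2 control steps, where no gene was called, 556 and 1514 genes had an unadjusted p under 0.05.

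The genes around the members were looked at in the same annotation. Acadsb, a mitochondrial acyl-CoA dehydrogenase gene whose start lies 80 bases from that of Ikzf5, had differences of 0.51 at 0 h and 1.10 at 24 h in favour of Ikaros cells (adjusted p = 0.00714 and 1.67e-08, limma), while Ikzf5 was not called. Pstk, which overlaps Ikzf5 on the opposite strand, was at -0.32 at 0 h and lower in Ikaros cells by 0.97 at 24 h (adjusted p = 0.642 and 0.00566). On both sides of Ikzf3, the nearest measured genes were Zpbp2, at -0.27 at 0 h and -0.53 at 24 h without a call (adjusted p = 0.897 and 0.487), and Mien1, at 0.02 at 0 h (0.975) and higher by 0.35 at 24 h (0.0244). Neither was called at 0 h, when Ikzf3 was. On the upstream side of Ikzf1 the nearest measured gene, Gm11998, was at 0.07 and 0.03 without a call. Within 250 kb of Ikzf1, Ikzf3 and Ikzf5, 7, 11 and 5 genes were in the table. At 0 h, when 8.33% of all genes were called, 1 neighbour of Ikzf3 was lower and 1 of Ikzf5 higher in Ikaros cells. At 24 h, when 62.9% of all genes were called, 1, 2 and 1 of them were higher and 3, 3 and 2 lower.

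The pattern of each member over the 36 libraries was compared with that of all other genes with a symbol, by Pearson's correlation and as a description only. The points share batches and groups. For Ikzf1 the most similar genes were Gadd45b, a growth arrest and stress gene (r = 0.978), Mcam, an adhesion molecule gene (0.978), and Sesn3, a Foxo-responsive stress gene (0.969). These are genes that differed between the lines in all groups. Mcam was at 8.83 in Ikaros and 3.83 in control cells at 0 h.

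For Ikzf3 the most similar genes were St14, a membrane serine protease gene (r = 0.724), Gid4, a ubiquitin ligase subunit gene (0.683), and Crtap (0.678). St14 went from 10.05 in Ikaros cells at 0 h to 7.09 at 24 h, with 8.77 and 9.05 in control cells. For Ikzf5 they were Zfp619 (0.746), Atm, the DNA damage kinase gene (0.740), and Cdkn2aip (0.732), which all had their lowest control mean at 6 h. Between members the correlations were 0.063 for Ikzf1 and Ikzf3, 0.070 for Ikzf1 and Ikzf5 and -0.126 for Ikzf3 and Ikzf5. Over the 12 group means in place of the libraries, 1 of the 3 most similar genes was the same for Ikzf1, 0 for Ikzf3 and 1 for Ikzf5, so the names depend on the measure.

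**Figure D3:**
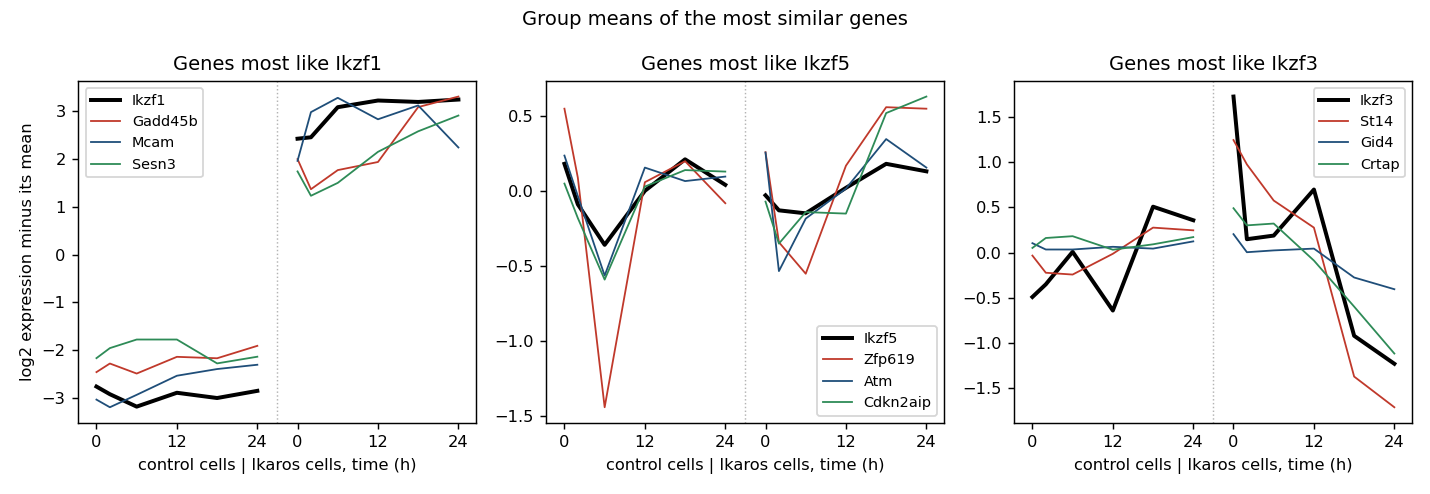
Group means of log2 expression, each gene centred on its own mean (vertical axes), over time in control cells (left part of each panel) and Ikaros cells (right part), for each member (black) and the 3 genes most correlated with it over 36 libraries (colours). Ikzf1 and its similar genes differ mainly between the lines, Ikzf3 and its similar genes fall late in Ikaros cells, and those of Ikzf5 dip at 6 h in control cells.

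Genes that act with the family were read from lists chosen with earlier results of these data known. Of 13 NuRD subunits, a complex that contains much of the nuclear Ikaros of lymphocytes, 1 was called at 0 h, Mta1 at 0.32 (adjusted p = 0.0371, limma), and this call was lost when replicate 1, 2 or 3 was left out and in the fit of these groups alone. At 24 h 5 were higher (Chd3, Mbd2, Mta3, Gatad2b and Hdac1) and 5 lower in Ikaros cells (Rbbp7, Gatad2a, Hdac2, Mbd3 and Chd4) and 3 were not called (Mta1, Mta2 and Rbbp4), with a median difference of 0.07 on the log2 scale against -0.01 over all genes. Over all genes, 8.33% were called at 0 h, and 31% were called higher and 31.9% lower at 24 h. Chd3, a remodelling ATPase, had a difference of 0.25 at 0 h (not called), 0.71 at 2 h and 1.80 at 24 h (both called). Mbd2, a methyl-CpG binding subunit, was higher by 1.70 and Rbbp7, a histone chaperone subunit, was at -1.14 at 24 h, both called. Chd4, the alternative ATPase, was at -0.24 at 24 h (adjusted p = 0.0457), opposite to Chd3. Mta1, not called at 24 h, was called higher at 2, 6, 12 and 18 h, at 0.55, 0.36, 0.43 and 0.25 (adjusted p = 0.000144, 0.00415, 0.000561 and 0.0277, limma).

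Of 7 other partners 6 were in the table, and at 24 h 3 were higher, 1 was lower and 2 were not called (median 0.09). At that time 31% of all genes were called higher and 31.9% lower. Smarca4, the ATPase of the BAF remodelling complex, was higher by 1.60 and its partner subunit Smarcb1 was at -0.89, while the corepressor gene Sin3b was higher by 0.53 and Ctbp1 was the third gene called higher. Of 11 genes for the turnover and phosphorylation of Ikaros proteins, such as cereblon ligase subunits, casein kinase 2 and protein phosphatase 1, 2 were higher (Csnk2a1 and Cul4a) and 3 lower at 24 h (Ppp1ca, Ppp1cb and Rbx1) and 6 were not called (median -0.15). The same shares of all genes stand beside these counts. The differences of the turnover genes at 24 h were small. Ppp1ca was at -0.58, Ppp1cb at -0.56 and Csnk2a1 at 0.32. Earlier, Ppp1cb was at -0.76 at 12 h and Cul4a at 0.69 at 6 h, both called. The casein kinase 2 genes differed in direction. Csnk2a2 was called lower at 6, 12 and 18 h, at -0.35, -0.43 and -0.51, and was not called at 24 h. Csnk2b was called higher at 12 h, at 0.46. At 2 h 1 turnover gene, Cul4a, was called, at 0.38, beside 19.1% of all genes, and 2 turnover genes were called with the replicate block. Cul4a was also the 1 turnover gene called at 0 h, at 0.42 (adjusted p = 0.0458, limma). At 0 h 8.33% of all genes were called.

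The route from the pre-B cell receptor to the IRF factors, which in pre-B cells raises Ikaros and Aiolos expression, moved in both directions. Irf4, at 9.09 ± 0.06 (SD, n = 3) in Ikaros and 9.62 ± 0.39 in control cells at 0 h, fell to a difference of -5.02 at 2 h (4.07 against 9.08; adjusted p = 2.93e-10, limma). The difference was -4.56, -3.12 and -1.46 at 6, 12 and 18 h, all called, and 0.11 at 24 h, not called. The Irf4 level of 4.07 in Ikaros cells at 2 h lay below the 10th percentile of gene means, 7.09. How precise so low a level is could not be assessed without counts. The adaptor gene Blnk was higher by 2.34 and 4.14 at 12 and 24 h, and the kinase gene Syk by 1.29 and 2.33. Before that Syk was called lower, at -0.42 at 0 h and -0.25 at 2 h (adjusted p = 0.00141 and 0.0406, limma), and Blnk at -0.48 at 6 h (0.0462). Irf8 was called higher at 6 h, at 0.31 (adjusted p = 0.034, limma), and lower at 12 and 18 h, at -0.50 and -0.70. At 24 h Irf8 was at -0.88 (adjusted p = 2.41e-07, limma). Btk was called lower at 12 h, at -0.60 (adjusted p = 0.0185, limma), and was at 0.14 at 24 h (adjusted p = 0.564, limma). Over the 5 genes, 2 were called lower at 2 h (4 called with the replicate block) and 2 were higher and 1 lower at 24 h. Of all genes, 9.88% were called lower at 2 h, and 31% were called higher and 31.9% lower at 24 h.

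Of 11 reported Ikaros target genes, 3 were higher (Ccnd2, Cdkn1b and Dntt) and 2 lower (Ccnd3 and Foxo1) in Ikaros cells at 0 h. At 24 h 5 were higher (Rag1, Rag2, Cdkn1b, Il7r and Foxo1) and 5 lower (Igll1, Vpreb1, Ccnd2, Ccnd3 and Myc), with Dntt not called (median 0.22). Of all genes, 4.61% were called higher and 3.72% lower at 0 h, and 31% and 31.9% at 24 h. Rag1, the recombinase gene, was higher by 5.19 at 24 h, and the surrogate light chain genes Igll1 and Vpreb1 were at -3.96 and -3.42, all past the test. Such targets were picked from work on this system, so their directions here are not independent evidence. Over the 6 times, the share of genes called in the table rose from 8.33% to 62.9%, and the counts in these lists are to be read beside it.

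**Figure D4:**
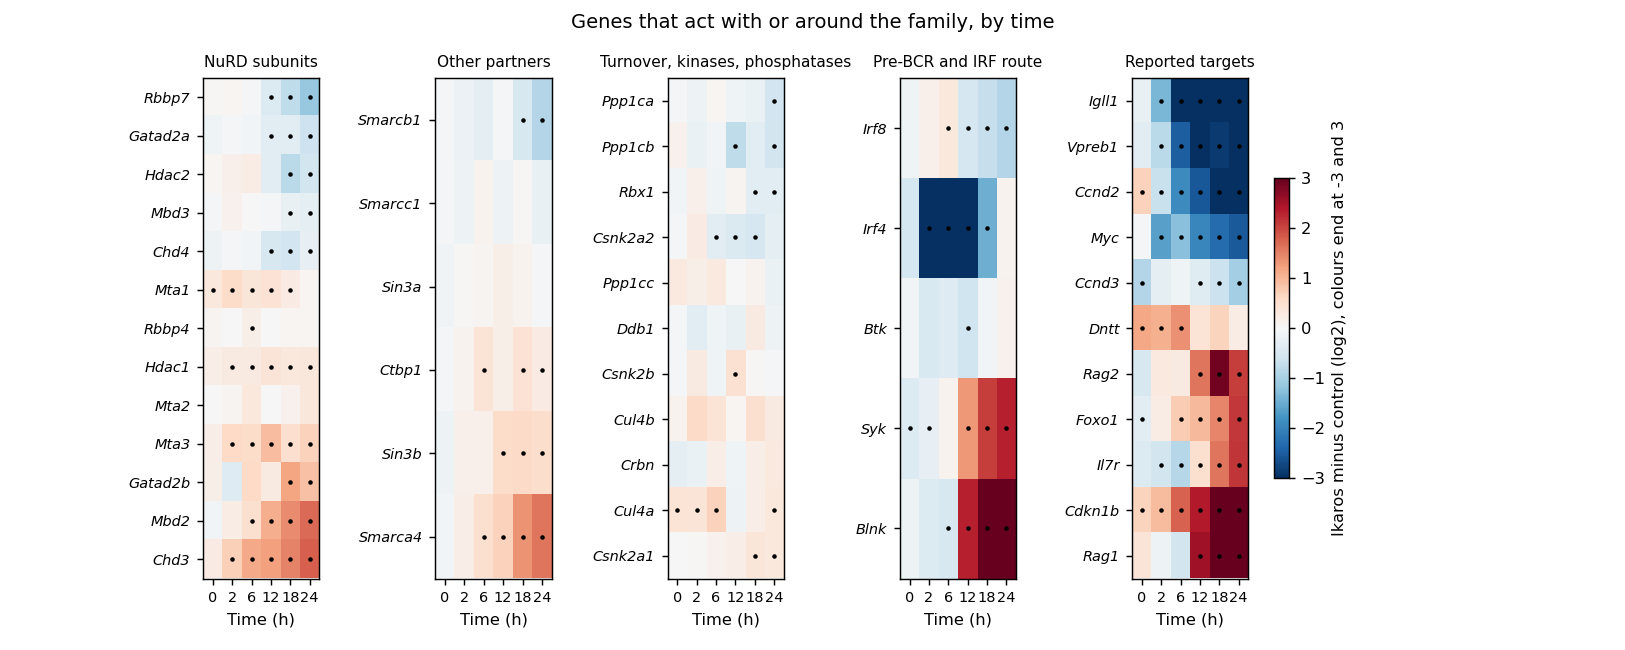
Difference in log2 expression between Ikaros and control cells (colour, red higher and blue lower in Ikaros cells, with colours ending at -3 and 3) for the genes of 5 lists (rows, ordered by the value at 24 h) against time in hours (columns). A dot marks an adjusted p under 0.05; NuRD subunits and other partners move in both directions, and Irf4 is low from 2 to 18 h and near 0 at 24 h.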

How the data were processed

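Messenger RNA of B3 cells was sequenced as 75-base read pairs from strand-specific libraries. The authors aligned fragments to mm10 with TopHat2, assigned them to genes with HTSeq (versions and the strand setting of the counting are not given in the sources used here), normalized with cqn and adjusted for library preparation with ComBat. The deposited values are log2 expression; base 2 follows from cqn and is not stated in the table. Batch adjustment before deposition can make standard errors too small.

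One limma model (version 3.58.1, R 4.3.3) held all genes with 12 group means (36 libraries, 24 residual degrees of freedom), with two-sided p-values adjusted by the Benjamini-Hochberg method over 12762 genes, and called at an adjusted p under 0.05. Contrasts were Ikaros against control per time point, how that difference changed from 0 h and from 2 h, each line against 0 h and between neighbouring times, and a moderated F test. An SE is that of the fit. The model was tested on simulated data with independent noise and no batch structure. That test cannot check the pairing by batch or the effect of the authors' batch adjustment on standard errors. The members and gene lists were chosen with earlier results of these data known. Genes named besides the members were the 3 largest called differences of each list at 24 h, every gene of lists of 5 or fewer, the 3 genes most correlated with each member, the nearest measured neighbours within 250 kb and Esr1; other list genes were named after their values were seen.

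The batch number in the labels is shared by a control and an Ikaros culture and pairs them. Over the 18 pairs, the correlation of their deviations from the group means ran from -0.062 to 0.507 (median 0.128, 12 above 0.1). Alternatives were a replicate block for batch, also with 0 h blocks of their own, a filter at the 25th percentile of mean expression (9571 genes kept), quantile normalization, eBayes with trend and robust settings, only the groups compared, and each replicate left out. Positions came from GENCODE mouse release 21, which held 98.7% of the identifiers, and promoters from RefSeq. Python 3.11.15 was used for the summaries. One marker gene is not reported here.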

Additional observations from a re-analysis of the deposited data

Results flagged for a closer look

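The difference between the lines itself changed over time, by the limma test of that change, in 12 cases for 2 of the 3 members. For Ikzf1 the difference grew by 1.07, 0.93, 1.01 and 0.90 between 0 h and 6, 12, 18 and 24 h, and from 2 h by 0.88, 0.73, 0.82 and 0.71 at the same times. For Ikzf3 the change from 0 h was -3.65 by 18 h and -3.81 by 24 h, and the change from 2 h was -1.92 and -2.08. With 3 libraries in a group, single libraries were not tested as outliers.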

How the results depend on the processing

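The Ikzf1 differences between the lines kept their calls at all 6 times under all 9 alternatives, and the Ikzf3 changes from 0 h by 18 and 24 h, the Ikzf3 falls of Ikaros cells at these times and its F test did so wherever Ikzf3 was kept. Depth could not be assessed without counts, and 3 libraries per group limit precision. The 25th-percentile filter removed Ikzf3 and so gave no value for it; counts of called members went from 2 to 1 at 0, 12, 18 and 24 h, for the changes from 0 h and from 2 h by 18 and 24 h, for Ikaros cells at 6, 18 and 24 h against 0 h and in the F test, and from 1 to 0 for Ikaros cells at 2 h against 0 h and from 12 to 18 h. With the replicate block for batch, in either form, they went from 1 to 2 for the change from 0 h by 6 h and in control cells at 6 h, and the block otherwise moved the counts of turnover genes (1 to 2) and of pre-B receptor and IRF genes (2 to 4) at 2 h and no other count beyond 1.5 times. Among the values given for the members, the block in its first form turned the uncalled Ikzf1 change of Ikaros cells at 2 h to -0.08. The filter moved turnover genes at 2 h to 2 and pre-B receptor and IRF genes at 2 h to 1, and eBayes with trend and robust settings moved turnover genes at 2 h to 2. With only the groups compared, called members went from 2 to 1 at 12 and 24 h, from 1 to 2 for the change from 0 h by 6 h, to 0 for the changes from 2 h by 6, 12 and 24 h, and to 0 for Ikaros cells at 2 h against 0 h, from 2 to 6 h and from 12 to 18 h; the control count at 6 h against 0 h also went to 0. The same fits gave 0, 1 and 2 NuRD subunits at 0, 2 and 6 h, 1 other partner at 6 and at 12 h, 0 and 1 turnover genes at 2 and 6 h, 1 pre-B receptor or IRF gene at 2 and at 6 h and 3 targets at 2 h. The cause was not tested. The shares of all genes given beside counts come from the main fit. Counts from the alternatives, here, above and below, stand without a share of all genes from the same fit. Their shifts are therefore not results about these genes in particular.

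Without 1 replicate of each group, called members ranged from 1 to 2 at 0, 18 and 24 h, were 1 at 12 h, and ranged from 0 to 2 for the change from 0 h by 6 h, from 0 to 1 by 12 h and from 1 to 2 by 18 and 24 h. They ranged from 0 to 1 for the 4 changes from 2 h, from 0 to 1 for Ikaros cells at 2 and 12 h against 0 h and in the steps from 2 to 6 h and from 12 to 18 h, from 0 to 2 for Ikaros cells at 6 h against 0 h and from 1 to 2 in the F test, and were 0 for control cells at 6 h. Called NuRD subunits were 0 at 0 h and ranged from 2 to 6 at 6 h, 7 to 10 at 18 h and 6 to 9 at 24 h; other partners from 1 to 3 at 12 h and 2 to 4 at 24 h; turnover genes from 0 to 1, 0 to 3, 1 to 3, 1 to 4 and 1 to 5 at 0, 2, 6, 18 and 24 h; pre-B receptor and IRF genes from 0 to 1, 1 to 2 and 1 to 2 at 0, 2 and 6 h; and targets from 1 to 4 at 0 h and 2 to 7 at 2 h. Uncalled values that changed sign were the Ikzf3 difference at 6 h (-0.27 to 0.46), the Ikzf5 differences at 2 h (-0.08 to 0.04), 12 h (-0.02 to 0.06) and 18 h (-0.14 to 0.03) and the Ikzf1 change of Ikaros cells at 2 h (-0.21 to 0.20).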
